A study of Mus musculus with 10 samples.

Results

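The 10 genes described here encode enzymes, and 1 helper protein, that make histamine, prostaglandins and leukotrienes, and they were followed in RNA-seq libraries of whole ear skin from 10 mice of strain C57Bl/6. They were taken by symbol from the 41388 genes in the files: Hdc, Ptgs1, Ptgs2, Ptges, Ptgds, Hpgds, Alox5, Alox5ap, Ltc4s and Lta4h. All 10 were found and all 10 entered the test, which covered 16830 genes. The libraries came from 6 mice labelled Experimental, which per the genotype label are NaV1.8+ Jak1F/F and per the series text NaV1.8+ Il4raF/F. These were set against 4 mice labelled Littermate, with the genotype label WT. NaV1.8 is a sodium channel found in sensory neurons for pain and itch, and a Cre recombinase under its control acts in these neurons, whose cell bodies lie outside the ear. The labels name no recombinase. Both groups received MC903 per the series text, which names a dose of 1 nM a day over 12 days in its clause on the littermates. MC903, or calcipotriol, is an analogue of vitamin D that brings about an itching, atopic dermatitis-like inflammation when put on skin. The sources used here give neither the age nor the sex of the mice.

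Total counts lay between 11520348 and 41935183 in the Experimental libraries and between 12865459 and 14324433 in the Littermate libraries. Keratinocyte markers summed to between 30554 and 37469 normalized CPM (counts per 1000000 counts, scaled by library) in Experimental skin and between 33867 and 38286 CPM in Littermate skin. Scn10a, the gene of NaV1.8 itself, had 2 counts in the 10 libraries together. Jak1 stood at 298 ± 18.5 CPM in Experimental skin and 309.8 ± 25.4 CPM in Littermate skin (SD, n = 6 and 4), and Il4ra at 189 ± 46.9 CPM in Experimental and 217 ± 23.5 CPM in Littermate skin. Neither passed the test by edgeR (adjusted p = 0.815 for Jak1 and 0.678 for Il4ra), and RNA of skin cells checks nothing about a deletion in neurons. The labels do not settle which gene was floxed.

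Histamine is made from histidine in a single step by histidine decarboxylase (Hdc), and in skin it is stored chiefly in mast cells. Prostaglandins and leukotrienes are lipid mediators that share arachidonic acid as their starting material. The cyclooxygenases Ptgs1 and Ptgs2 turn it into prostaglandin H2, which Ptges converts to prostaglandin E2 and which Ptgds and Hpgds convert to prostaglandin D2. The lipoxygenase Alox5, helped by its activating protein Alox5ap, turns the same acid into leukotriene A4. Lta4h makes the neutrophil attractant leukotriene B4 from it, and Ltc4s makes leukotriene C4, the parent of the cysteinyl leukotrienes. Ptgs1 is generally present at a steady level, whereas Ptgs2 and Hdc are induced by inflammatory signals. Histamine and leukotrienes are known mediators of itch and swelling in skin.

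None of the 10 genes differed between Experimental and Littermate skin at an adjusted p under 0.05 (edgeR), against 0.0178% of all tested genes, 0.0119% being lower in Experimental skin. DESeq2 and limma voom called none of them either. A single member, Alox5, had an unadjusted p under 0.05, which is 1 of 10 members against 11.8% of all tested genes, a share near the background. The median log2 fold change was -0.06 over the members and -0.00 over all tested genes, and 3 members stood above 0 and 7 below, of which Hpgds and Ltc4s changed sign with corrections for GC content and length. For no member did all 6 Experimental libraries lie outside the range of the 4 Littermates, which 2.12% of all tested genes did, 1.35% below it. The fold changes ran from -0.54 for Ptgs2 to 0.14 for Ptgs1. In bulk skin, fewer cells of a type and less RNA per cell cannot be told apart.

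**Figure D1:**
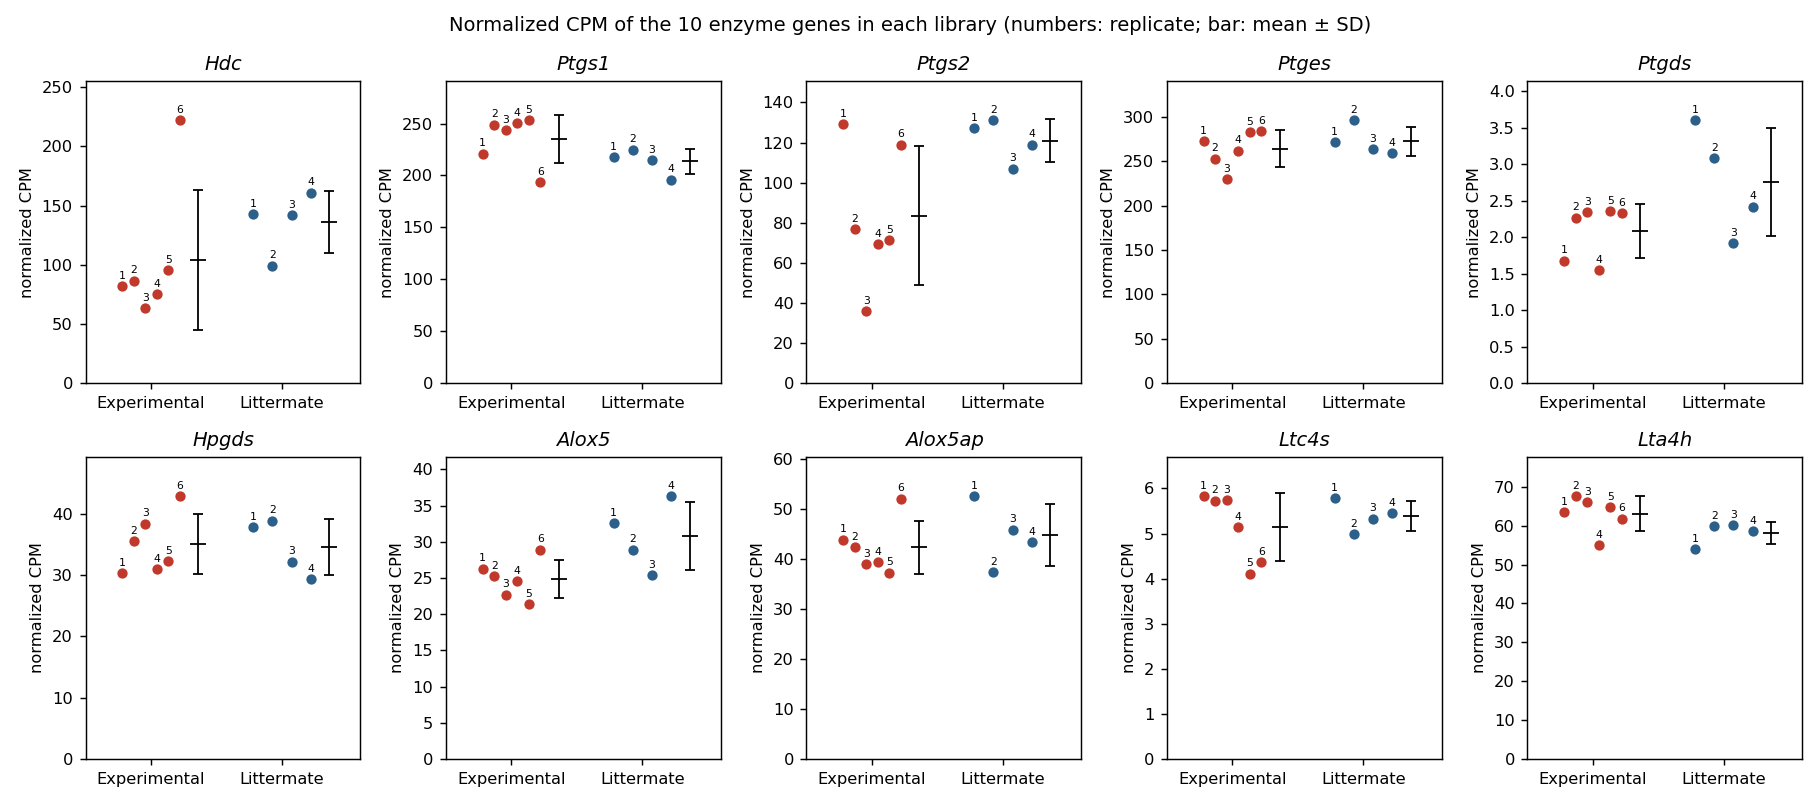
Normalized CPM (vertical axes, starting at 0) of each enzyme gene in the 6 Experimental libraries (left, red) and the 4 Littermate libraries (right, blue), with replicate numbers and group means ± SD. Hdc in Experimental 6 stands at 222 CPM above all other libraries, and Ptgs2 falls below the lowest Littermate, at 107 CPM, in 4 of 6 Experimental libraries.

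The levels of the 10 genes were ordered on the scale of normalized CPM per kilobase of the exons in the files. Ptges was the highest, at 67.2 ± 5.26 per kilobase in Experimental and 69.4 ± 4.14 in Littermate skin (SD, n = 6 and 4). Ptgs1 came next, at 60.5 ± 6.00 in Experimental and 54.9 ± 3.24 in Littermate skin, and then Alox5ap, at 49.7 ± 6.28 in Experimental and 52.6 ± 7.35 in Littermate skin. These neighbours overlapped in Experimental skin, while in Littermates the range of Ptges lay wholly above that of Ptgs1. Lta4h followed at 30.5 ± 2.15 in Experimental and 28.1 ± 1.38 in Littermate skin, below Alox5ap in all 10 libraries. Ptgs2 and Hdc filled the middle, at 18.3 ± 7.54 and 16.3 ± 9.23 in Experimental skin and at 26.4 ± 2.32 and 21.3 ± 4.10 in Littermate skin. Their ranges overlapped in both groups. Ptgs2 also overlapped with Lta4h above it in both groups.

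Below these by mean stood Hpgds, at 9.78 ± 1.37 per kilobase in Experimental and 9.65 ± 1.28 in Littermate skin. Its range overlapped with that of Hdc in Experimental skin but not in Littermates. In Experimental 3, Hpgds at 10.7 stood above both Hdc at 9.97 and Ptgs2 at 7.89. Ltc4s and Alox5 overlapped in both groups and changed places between them. Ltc4s stood at 7 ± 1.03 and Alox5 at 6.05 ± 0.647 in Experimental skin, and at 7.32 ± 0.452 and 7.5 ± 1.14 in Littermate skin. Ptgds was the lowest by a wide margin, at 1.27 ± 0.224 in Experimental and 1.67 ± 0.447 in Littermate skin, below Alox5 in all 10 libraries. The Hdc length of 6389 bases counts the exons of every model in the files, which lowers its value per kilobase. Ltc4s shares 192 of its 736 exonic bases with the antisense gene Gm26542, and no strand marking is described for the libraries, so reads of the 2 genes cannot be told apart there.

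**Figure D2:**
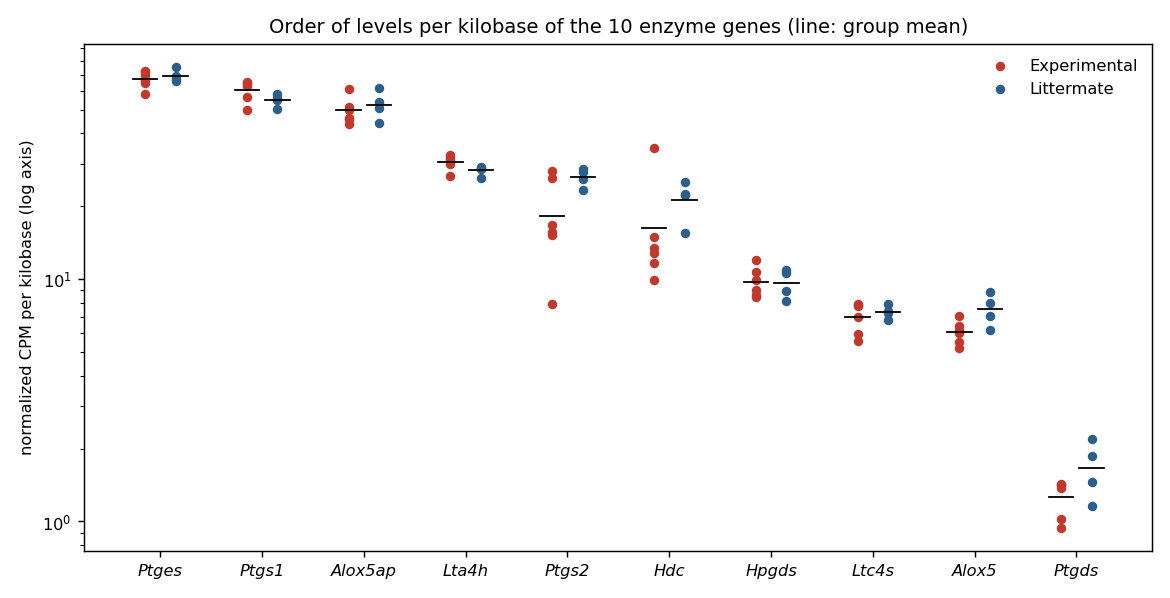
Normalized CPM per kilobase (vertical log axis) of the enzyme genes, ordered by their mean over all libraries, with Experimental libraries in red at left, Littermate libraries in blue at right and lines for group means. The group means of Ptges, Ptgs1 and Alox5ap lie between 49.7 and 69.4, and Ptgds lies apart at the bottom with means of 1.27 in Experimental and 1.67 in Littermate skin.

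The start regions of Hdc, Ptgs2 and Alox5 are shown because these are the members that stood lowest or nearest to the test threshold relative to Littermates. Each runs from 250 bases before to 50 bases after the start of the gene, 5′ to 3′ on the strand of the gene, in the RefSeq table of build GRCm38.p6. That table held 9 of the 10 members. Hdc lies at chr2:126618629-126618928 on the minus strand, Ptgs2 at chr1:150099781-150100080 on the plus strand and Alox5 at chr6:116461129-116461428 on the minus strand. The Hdc region lies wholly inside the gene as counted, which runs to 126619299, so its RefSeq start differs from that of the counted exons. Capitals mark matches, on either strand, to 5 motifs: TATAA (TATA box core), CACGTG (E-box), GATAA (GATA core), GGGCGG (GC box) and TGACG (core of the cyclic AMP response element).
Hdc: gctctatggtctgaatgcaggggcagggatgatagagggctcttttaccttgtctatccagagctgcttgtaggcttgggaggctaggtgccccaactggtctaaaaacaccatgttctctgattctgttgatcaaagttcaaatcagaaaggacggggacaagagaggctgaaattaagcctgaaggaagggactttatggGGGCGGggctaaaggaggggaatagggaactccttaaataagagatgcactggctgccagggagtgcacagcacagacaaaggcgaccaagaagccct
Ptgs2: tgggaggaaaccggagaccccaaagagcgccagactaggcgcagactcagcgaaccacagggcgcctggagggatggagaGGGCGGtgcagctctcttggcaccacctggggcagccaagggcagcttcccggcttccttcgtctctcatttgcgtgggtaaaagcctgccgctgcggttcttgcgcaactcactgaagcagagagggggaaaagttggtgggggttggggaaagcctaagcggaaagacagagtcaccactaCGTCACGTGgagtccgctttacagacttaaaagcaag
Alox5: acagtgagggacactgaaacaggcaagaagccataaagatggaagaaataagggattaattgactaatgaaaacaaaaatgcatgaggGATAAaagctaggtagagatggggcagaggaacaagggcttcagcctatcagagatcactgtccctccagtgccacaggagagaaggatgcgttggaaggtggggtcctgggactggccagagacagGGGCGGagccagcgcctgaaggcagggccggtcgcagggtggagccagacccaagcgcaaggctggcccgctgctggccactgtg
All 3 regions hold a GC box, which began 48 bases upstream of the start in Hdc, 170 bases upstream in Ptgs2 and 35 bases upstream in Alox5. This motif is held by 35.7% of all 32851 regions there, and by 4 of the 9 members, Ptges being the other. In Ptgs2 the E-box, held by 7.15% of all regions, began at base 17 after the start and overlapped a TGACG match, held by 20.8%, that began at base 14. Alox5 had a GATAA match 162 bases upstream, a motif of 25.4% of all regions. TATAA, held by 24.9% of all regions, was in none of the 9. These are matches of letters, and binding was not measured.

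Hdc (ENSMUSG00000027360, mm10 chromosome 2, 126593667 to 126619299) split the Experimental libraries. They held 81.9, 86.6, 63.7, 75.0, 95.5 and 222 CPM in replicates 1 to 6, against 143, 99.3, 142 and 161 CPM in Littermates 1 to 4. In 5 of 6 Experimental libraries Hdc lay below every Littermate, and in Experimental 6 it lay above every library of both groups. The log2 fold change came to -0.39 (95% interval -1.18 to 0.40; edgeR, adjusted p = 0.714). Without Experimental 6 it was -0.76 (edgeR, adjusted p = 0.0562), where 0.168% of all tested genes were called. Without both Littermate 2 and Experimental 6 it was -0.88 and passed (edgeR, adjusted p = 0.00475), where 3.34% of all tested genes were called. For Hdc these were the lowest Littermate and the highest Experimental library, so a wider difference without them was fixed in advance. Without the deepest libraries, Experimental 2 and 3, the log2 fold change was -0.19 (edgeR, adjusted p = 0.925). As for Hdc, the 5 libraries Experimental 1 to 5 lay below the Littermate range for 2.69% of all tested genes.

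Experimental 6 stood apart from the other Experimental libraries in summed markers of several blood cell types. The 5 basophil markers summed to 84.7 CPM in it, against 38.0 to 52.7 CPM in the other Experimental and 56.7 to 71.7 CPM in the Littermate libraries. All 5 were highest in Experimental 6 among the Experimental libraries, as were 6 of 8 neutrophil markers, 4 of 8 mast cell markers and 5 of 7 macrophage markers. The neutrophil markers summed to 546 CPM in Experimental 6, against 218 to 342 CPM in the other Experimental and 329 to 631 CPM in the Littermate libraries. The eosinophil markers summed to 9.43 CPM in Experimental 6, the lowest of the 10 libraries, against up to 20.3 CPM in the other Experimental and 10.2 to 30.4 CPM in the Littermate libraries. Ear2 carried this low sum, at 3.72 CPM in Experimental 6, 10.1 to 16.5 CPM in the other Experimental and 7.26 to 25.3 CPM in Littermate libraries. Of the 6 eosinophil markers, 2 were highest in Experimental 6 among the Experimental libraries, and 3 averaged under 1 CPM. The dendritic cell markers summed to 38.9 CPM in Experimental 6, the lowest of the Experimental libraries, where the others held up to 49.5 CPM. This sum lay within the Littermate range of 36.9 to 40.9 CPM. Of the 6 dendritic cell markers, 1 was highest in Experimental 6 among the Experimental libraries. Of the markers, Ear2, Il4 and Csf3r are named here after their values were seen. Il4, a type 2 cytokine made by basophils and T cells, stood at 6.98 CPM in Experimental 6, at 1.11 to 1.4 CPM in the other Experimental libraries and at 0.924 to 1.79 CPM in Littermates. Csf3r, the receptor for the neutrophil growth factor G-CSF, stood at 43.1 CPM in Experimental 6, at 8.41 to 17.4 CPM in the other Experimental libraries and at 19.6 to 31.8 CPM in Littermates. None of the markers of these cell types passed over all genes (edgeR). Their part in the Hdc values was not tested.

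The cyclooxygenases pointed in opposite directions without passing. Ptgs2 (ENSMUSG00000032487, chromosome 1, 150100031 to 150108227) held 129, 76.8, 36.1, 69.4, 71.3 and 119 CPM in Experimental replicates 1 to 6, against 127, 131, 107 and 119 CPM in Littermates 1 to 4. Replicates 1 and 6 of the Experimental group lay within the Littermate range and the other 4 below it. The mean was 83.6 ± 34.5 CPM in Experimental and 121 ± 10.6 CPM in Littermate skin (SD, n = 6 and 4). The log2 fold change came to -0.54 (95% interval -1.22 to 0.15; edgeR, adjusted p = 0.538). It was -0.31 without the deepest libraries, Experimental 2 and 3, and -0.32 with the Y-linked genes as a covariate. Ptgs1 (ENSMUSG00000047250, chromosome 2, 36230426 to 36252272) ran from 194 to 253 CPM with a median of 246 CPM in Experimental libraries, against 218, 225, 215 and 196 CPM in Littermates 1 to 4. In 4 of 6 Experimental libraries it lay above every Littermate, and in Experimental 6 it lay below all of them. The log2 fold change came to 0.14 (95% interval -0.04 to 0.32; edgeR, adjusted p = 0.538).

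The prostaglandin E2 synthase overlapped in level between the groups. Ptges (ENSMUSG00000050737, chromosome 2, 30889471 to 30929863) ran from 229.7 to 284 CPM with a median of 268 CPM in Experimental libraries, against 272, 296, 264 and 259 CPM in Littermates 1 to 4. The log2 fold change came to -0.05 (95% interval -0.21 to 0.11; edgeR, adjusted p = 0.854).

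The pair of prostaglandin D2 synthases are unrelated proteins, Hpgds being the enzyme of mast cells and other blood cells and Ptgds a secreted lipocalin known from brain. Hpgds (ENSMUSG00000029919, chromosome 6, 65117293 to 65144908) ran from 30.3 to 42.9 CPM with a median of 33.9 CPM in Experimental libraries, against 37.9, 38.9, 32.2 and 29.3 CPM in Littermates 1 to 4. Its log2 fold change came to 0.02 (95% interval -0.21 to 0.26; edgeR, adjusted p = 0.96), and its highest library was Experimental 6. Ptgds (ENSMUSG00000015090, chromosome 2, 25466709 to 25470046) rested on 19 to 98 counts per Experimental and 27 to 46 counts per Littermate library. It stood at 1.55 to 2.36 CPM with a median of 2.30 CPM in Experimental libraries, against 3.6, 3.08, 1.92 and 2.42 CPM in Littermates 1 to 4. The groups overlapped between 1.92 and 2.36 CPM. Its log2 fold change came to -0.37 (95% interval -0.80 to 0.05; edgeR, adjusted p = 0.493).

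Among the leukotriene enzymes Alox5 came closest to a difference. Alox5 (ENSMUSG00000025701, chromosome 6, 116410077 to 116461178) held 26.3, 25.3, 22.7, 24.6, 21.4 and 28.9 CPM in Experimental replicates 1 to 6, against 32.6, 28.9, 25.4 and 36.3 CPM in Littermates 1 to 4. In 4 of 6 Experimental libraries it lay below every Littermate, and the other 2 overlapped with Littermates 2 and 3. The mean was 24.9 ± 2.66 CPM in Experimental and 30.8 ± 4.69 CPM in Littermate skin (SD, n = 6 and 4). The log2 fold change was -0.31 with an SE of 0.11 (95% interval -0.54 to -0.08), which missed the threshold after adjustment (edgeR, adjusted p = 0.281). With the level of 4 Y-linked genes as a covariate it was -0.11 (edgeR, adjusted p = 0.984). The 8 mast cell markers summed to 372 to 482 CPM with a median of 403 CPM in Experimental skin and to 428 to 496 CPM with a median of 475 CPM in Littermate skin. None of the 8 was at 0 counts or passed over all genes (edgeR), and their part in the Alox5 values was not tested.

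The partner of Alox5 and the enzymes after it lay closer together. Alox5ap (ENSMUSG00000060063, chromosome 5, 149265058 to 149288045) ran from 37.3 to 52.1 CPM with a median of 40.9 CPM in Experimental libraries, against 52.6, 37.4, 45.9 and 43.4 CPM in Littermates 1 to 4. Its log2 fold change came to -0.08 (95% interval -0.31 to 0.15; edgeR, adjusted p = 0.817). Lta4h (ENSMUSG00000015889, chromosome 10, 93453396 to 93484896) held 63.5, 67.6, 66.0, 55.0, 64.8 and 61.8 CPM in Experimental replicates 1 to 6, against 54.0, 59.8, 60.1 and 58.7 CPM in Littermates 1 to 4. In 5 of 6 Experimental libraries it lay above every Littermate, and Experimental 4 lay near the lowest. Its log2 fold change came to 0.12 (95% interval -0.03 to 0.27; edgeR, adjusted p = 0.538).

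Ltc4s (ENSMUSG00000020377, chromosome 11, 50236469 to 50238616) was scarce, with 47 to 241 counts per Experimental and 68 to 75 counts per Littermate library. It ran from 4.11 to 5.83 CPM with a median of 5.44 CPM in Experimental libraries, against 5.79, 4.98, 5.33 and 5.45 CPM in Littermates 1 to 4. Experimental 5 and 6 lay below every Littermate, and the others overlapped with them or lay just above. Its log2 fold change came to -0.05 (95% interval -0.33 to 0.24; edgeR, adjusted p = 0.927).

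**Figure D3:**
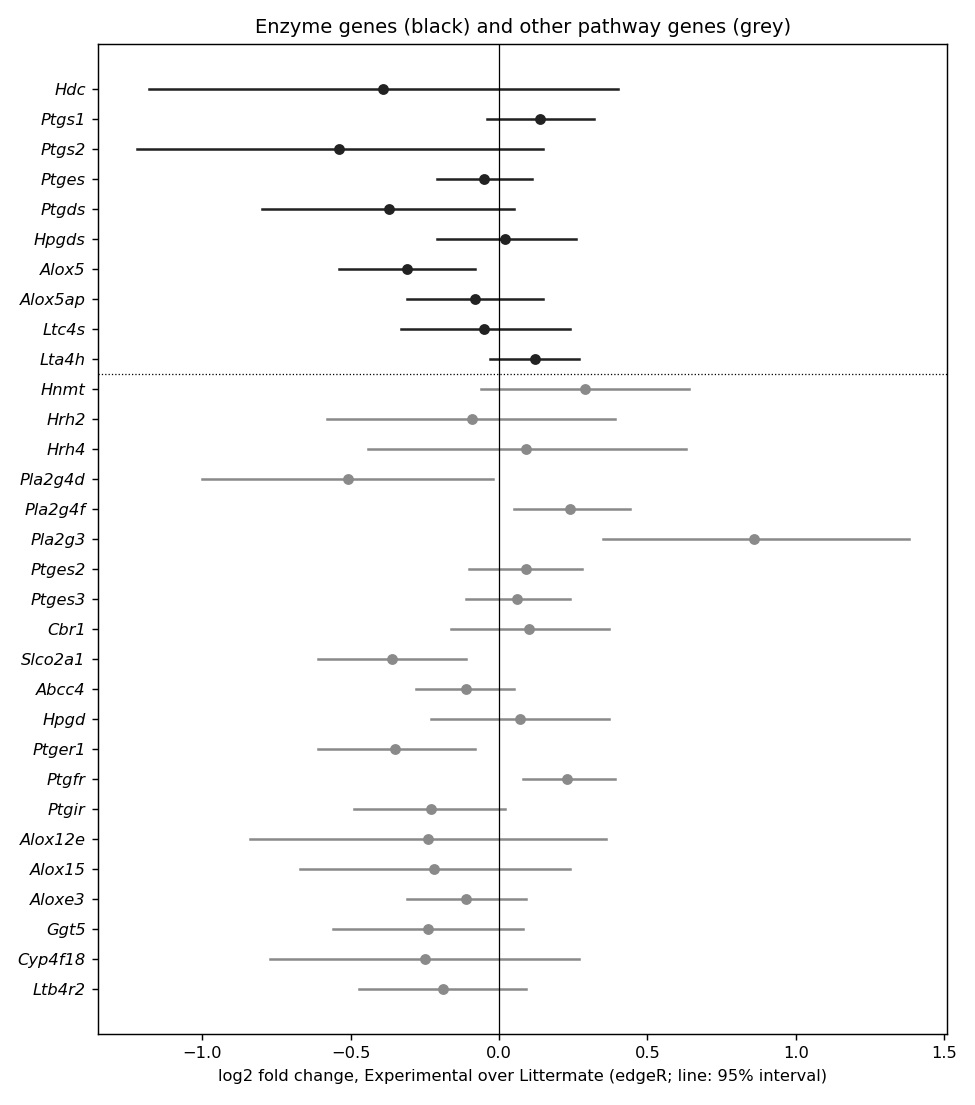
Log2 fold change of Experimental over Littermate skin (horizontal axis) with 95% intervals from edgeR, for the enzyme genes in black above and for the named genes of the surrounding pathways in grey below. Among the enzyme genes the interval of Alox5 alone lies wholly on one side of 0, from -0.54 to -0.08, and Hdc and Ptgs2 have the widest intervals.

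Ratios of enzymes that share a substrate or follow each other were taken within each library on the scale per kilobase, where size factors cancel. None of 5 ratios passed the exact two-sided permutation test after adjustment over the 5 (210 arrangements of the labels, smallest possible p = 0.00476), and 1 had an unadjusted p under 0.05. The ratio of Ptgs2 to Ptgs1 was 0.494, 0.262, 0.126, 0.235, 0.239 and 0.522 in Experimental replicates 1 to 6, against 0.495, 0.493, 0.422 and 0.517 in Littermates 1 to 4. In 4 Experimental libraries the ratio lay below every Littermate, and in replicates 1 and 6 it lay at the Littermate level. The mean log2 ratio was -1.84 ± 0.77 in Experimental and -1.06 ± 0.13 in Littermate skin (SD, n = 6 and 4), a difference of -0.78 (exact permutation test, p = 0.133, adjusted p = 0.222).

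Ptgds stood far below Hpgds in every library, at a ratio of 0.112 to 0.161 with a median of 0.128 in Experimental skin, against 0.208, 0.174, 0.132 and 0.182 in Littermates 1 to 4. In 3 of 6 Experimental libraries the ratio lay below every Littermate. The difference of the log2 ratios was -0.40 (exact permutation test, p = 0.0333, adjusted p = 0.167). The ratio of Alox5ap to Alox5 ran from 7.73 to 8.68 in Experimental skin, a narrow range, against 7.76, 6.25, 8.68 and 5.76 in Littermates 1 to 4, and the difference of the log2 ratios was 0.22 (exact permutation test, p = 0.081, adjusted p = 0.202). The ratio of Ltc4s to Lta4h ran from 0.180 to 0.265 in Experimental and from 0.235 to 0.303 in Littermate skin, a log2 difference of -0.19 (exact permutation test, p = 0.195, adjusted p = 0.244). The ratio of Ptges to Hpgds ran from 5.45 to 8.23 in Experimental and from 6.54 to 8.06 in Littermate skin, a log2 difference of -0.07 (exact permutation test, p = 0.638, adjusted p = 0.638).

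**Figure D4:**
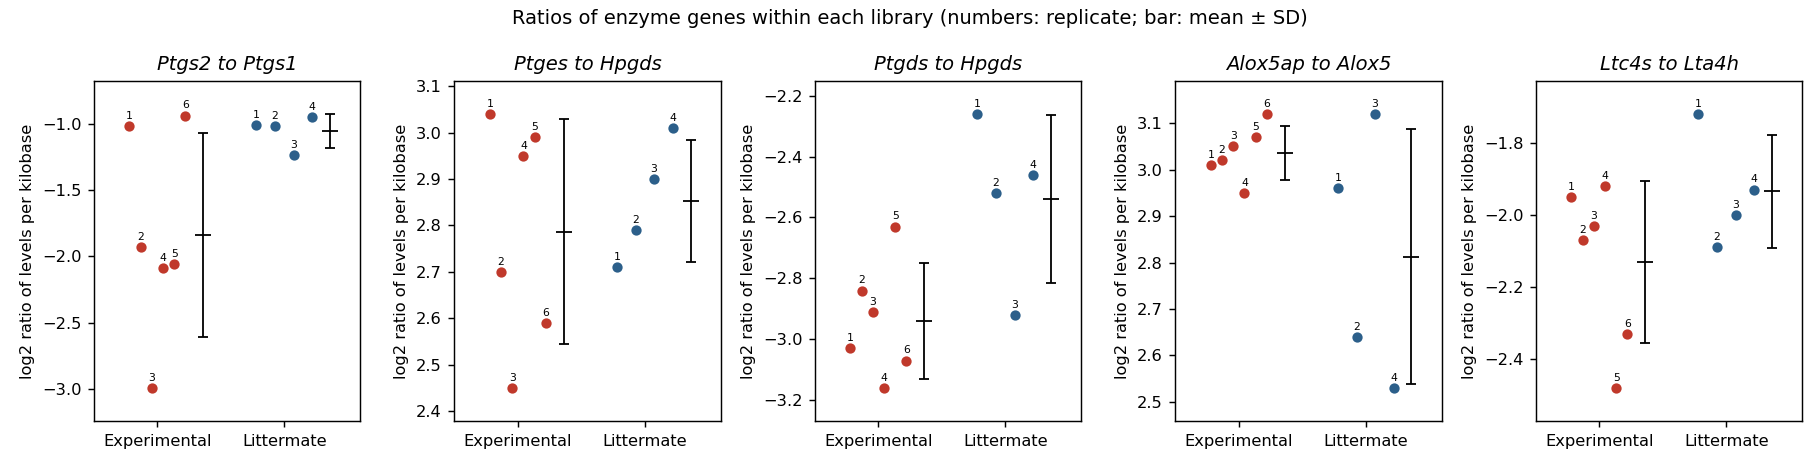
Log2 ratio of levels per kilobase within each library (vertical axes) for the 5 enzyme pairs, with Experimental libraries left in red, Littermate libraries right in blue, replicate numbers, and means ± SD. For Ptgs2 to Ptgs1, Experimental 1 and 6 sit with the Littermates and the other 4 sit below them.

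Another 60 genes of these pathways were read from 7 lists, of which 55 were tested. None passed over all genes by edgeR, and 7 had an unadjusted p under 0.05, 4 higher and 3 lower in Experimental skin, where 3.65% and 8.10% of all tested genes did. Their median log2 fold change was 0.01, with 29 genes above 0 and 26 below. Aoc1, Hrh3, Pla2g10, Ggt1 and Oxgr1 had at most 15 counts in any library and were not tested.

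Phospholipases that release arachidonic acid held the lowest p of all lists. In this list 9 of 12 tested genes stood above 0, against 8341 of all 16830 tested genes. Pla2g3, a secreted phospholipase, stood at 11.8 to 24.2 CPM with a median of 15.6 CPM in Experimental libraries and at 6.86 to 12.0 CPM with a median of 9.25 CPM in Littermates. It lay above every Littermate in 5 of 6 Experimental libraries, with a log2 fold change of 0.86 (95% interval 0.35 to 1.38; edgeR, adjusted p = 0.189). DESeq2 called it, at 0.88 (adjusted p = 0.0121), where it called 1.5% of the genes it adjusted. With the Y-linked genes as a covariate it was 0.50 (edgeR, adjusted p = 0.929). Pla2g4f, a cytosolic phospholipase, stood at 351 ± 32.9 CPM in Experimental and 297 ± 31.8 CPM in Littermate skin (SD, n = 6 and 4), at 0.24 on the log2 scale (edgeR, adjusted p = 0.317). Pla2g4d, of the same group, stood at -0.51 (edgeR, adjusted p = 0.405).

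Among 9 prostanoid receptors 7 stood below 0, against 8489 of all 16830 tested genes. Ptgfr, the receptor of prostaglandin F2 alpha, stood above 0, at 23.2 to 27.0 CPM in Experimental and 20.5 to 21.8 CPM in Littermate skin. All 6 Experimental libraries lay above all Littermates, as they did for 0.761% of all tested genes, at a log2 fold change of 0.23 that did not pass (edgeR, adjusted p = 0.241). Ptger1, a receptor of prostaglandin E2, stood at 14.4 to 24.2 CPM in Experimental and 20.5 to 27.1 CPM in Littermate skin, at -0.35 on the log2 scale (edgeR, adjusted p = 0.29). The prostacyclin receptor Ptgir stood at -0.23 (edgeR, adjusted p = 0.473). Of the transport and breakdown genes, Slco2a1, the importer of prostaglandins into cells, stood at 37.0 to 48.9 CPM in Experimental and 44.1 to 72.9 CPM in Littermate skin, at -0.36 (edgeR, adjusted p = 0.253). Without Littermate 2 it passed, at -0.46 (edgeR, adjusted p = 0.0343), in a fit that called 343 genes. It was -0.21 without Littermate 4 (edgeR, adjusted p = 0.688) and -0.07 with the Y-linked genes as a covariate (edgeR, adjusted p = 0.99). Abcc4, an exporter, stood at -0.11 and Hpgd, which inactivates prostaglandins, at 0.07.

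In the remaining lists no gene had an unadjusted p under 0.05. Of 5 tested genes of histamine storage, breakdown and reception, Hnmt, which inactivates histamine in tissue, stood at 0.29 (edgeR, adjusted p = 0.528), Hrh2 at -0.09 and Hrh4 at 0.09. The other prostanoid synthases lay between -0.01 and 0.10, with Cbr1 at 0.10, Ptges2 at 0.09 and Ptges3 at 0.06. The other lipoxygenases lay between -0.24 and 0.04, with Alox12e at -0.24, Alox15 at -0.22 and Aloxe3, an enzyme of the skin barrier, at -0.11. Alox12e changed sign without Littermate 3, at 0.08, and Alox15 reached 0.00 with the Y-linked covariate. The 11 tested genes of leukotriene conversion, export and reception lay between -0.25 and 0.14, with the leukotriene B4 oxidase Cyp4f18 at -0.25, Ggt5 at -0.24 and the receptor Ltb4r2 at -0.19, which changed sign with the Y-linked covariate, at 0.12. The lowest adjusted p among these 4 lists was that of Hnmt.

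Members were set against the summed level of mast cell, neutrophil and macrophage markers over the 10 libraries, 30 relations in all. Of these 6 passed by Pearson's r, 4 with the mast cell and 2 with the macrophage markers, and none with the neutrophil markers. By Spearman's rho 8 passed, these 6 and another 2. Of those, Hdc with the neutrophil markers gave rho = 0.794 (permutation p = 0.00857, adjusted p = 0.0428) and r = 0.573 (permutation p = 0.0832, adjusted p = 0.178), which was 0.835 without Littermate 2 (permutation, adjusted p = 0.0221) and 0.388 without Experimental 6 (permutation, adjusted p = 0.482). The neutrophil sum is weighted to S100a8 and S100a9, at 219.7 and 301 CPM in Littermate 2, which had the highest sum, 631 CPM. Among Littermates, Csf3r, Cxcr2, Retnlg and Ngp were lowest in that library, and Mmp9 and Stfa2l1 were not. The effect of this weighting on the relations was not tested. Alox5 with the macrophage markers gave rho = 0.83 (permutation p = 0.00487, adjusted p = 0.0365) and r = 0.695 (permutation p = 0.0263, adjusted p = 0.0986). The closest by either measure was Alox5 with the mast cell markers, at r = 0.883 (permutation p = 0.00057, adjusted p = 0.0171) and rho = 0.952 (permutation p = 0.0001, adjusted p = 0.003). Hdc with the mast cell markers gave r = 0.819 (permutation p = 0.00489, adjusted p = 0.0359) and rho = 0.842 (permutation p = 0.00397, adjusted p = 0.0365). Ptgs1 ran against the mast cell markers, at r = -0.872 (permutation p = 0.00182, adjusted p = 0.0273) and rho = -0.806 (permutation p = 0.00732, adjusted p = 0.0428). Ptgs2 gave r = 0.767 with the mast cell markers (permutation p = 0.00665, adjusted p = 0.0359), with rho = 0.77 (permutation p = 0.0127, adjusted p = 0.0476). With the macrophage markers Ptgs2 gave r = 0.766 (permutation p = 0.00718, adjusted p = 0.0359) and rho = 0.855 (permutation p = 0.0028, adjusted p = 0.0365). Ptgs1 gave r = -0.799 with the macrophage markers (permutation p = 0.00651, adjusted p = 0.0359) and rho = -0.782 (permutation p = 0.0107, adjusted p = 0.0458).

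The calls of these relations were lost within groups and changed with single libraries. Without Experimental 4 and Littermate 4, the libraries farthest from the median of the mast cell markers, r was 0.931 for Alox5, 0.775 for Hdc, 0.789 for Ptgs2 and -0.81 for Ptgs1. With the macrophage markers and their 2 farthest libraries left out, r was 0.848 for Ptgs2 and -0.679 for Ptgs1. Taken as deviations from each group's mean, r was 0.798 for Alox5 (permutation, adjusted p = 0.153), 0.768 for Hdc (permutation, adjusted p = 0.221) and -0.83 for Ptgs1 (permutation, adjusted p = 0.153), and none of the 30 relations passed by r. Leaving out 1 library at a time gave between 0 and 11 relations that passed by r, with 0 without Littermate 4, Experimental 1 or Experimental 2, and 11 without Littermate 2. The count was 2 without Littermate 1 or Experimental 6, 3 without Littermate 3 and 1 without Experimental 5. Members and markers were read from the same libraries.

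**Figure D5:**
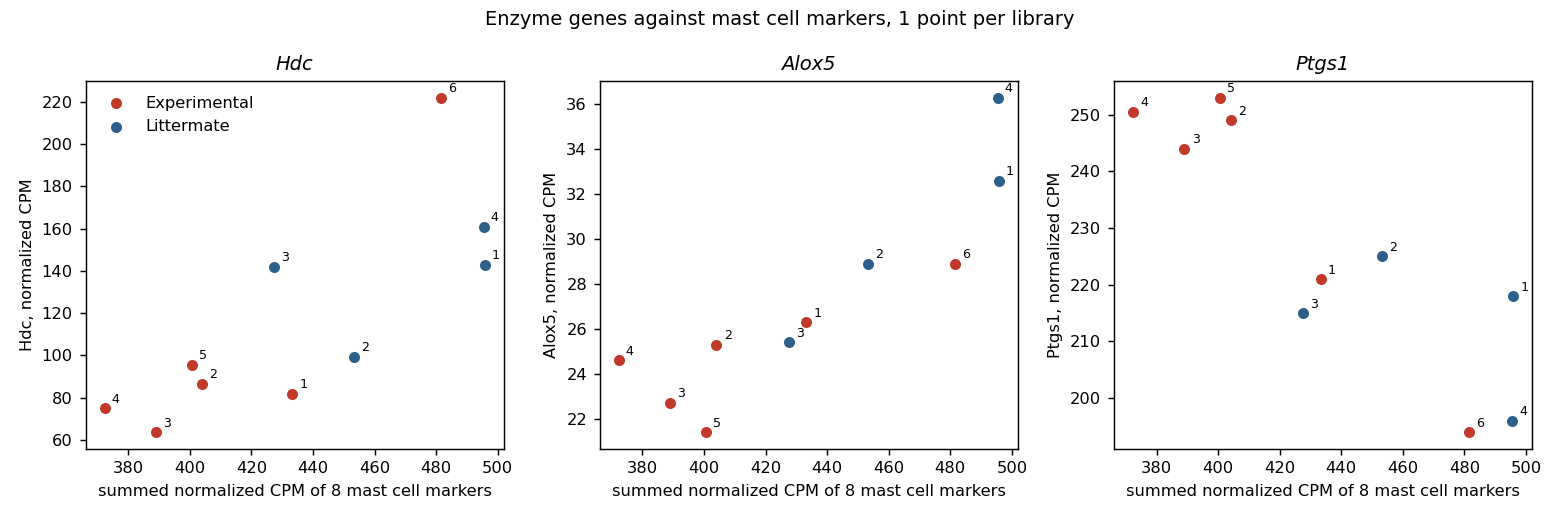
Normalized CPM of Hdc, Alox5 and Ptgs1 (vertical axes, not starting at 0) against the summed normalized CPM of 8 mast cell markers in the same library (horizontal axes), with Experimental libraries in red, Littermate libraries in blue and replicate numbers beside the points. Alox5 climbs with the markers across both groups, at r = 0.883 over 10 libraries, while Hdc in Experimental 6 stands above the rest at 222 CPM.

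For each member the 3 genes with the most similar pattern were sought among 14290 genes, by Pearson's r of log2 normalized CPM over the 10 libraries, as a description. Hdc was nearest to Srgn, which encodes the granule proteoglycan serglycin, at r = 0.986, to Cd300lf at 0.968 and to the chemokine gene Ccl4 at 0.96. Without Experimental 6 and Littermate 4, r was 0.98, 0.926 and 0.918 for these genes. Ccl4 stood at 25.3 CPM in Experimental 6 and at 5.86 to 9.35 CPM in Littermates, and Srgn at 102 CPM in Experimental 6 and at 49.7 to 68.7 CPM in Littermates. Both thus had the same high library as Hdc.

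The nearest gene to Alox5 was Naglu, at r = 0.963, followed by Man2b1 at 0.962, which both encode lysosomal enzymes, and Arhgef2 at 0.961. Ptgs1 was nearest to Fam135a at 0.962, to Sqle, an enzyme of cholesterol synthesis, at 0.941, and to the phospholipase gene Pla2g4f at 0.94. Ptgs2 was nearest to Itga1 at 0.946, which was 0.824 without Experimental 3 and 4. Alox5ap was nearest to the chemokine gene Cxcl14 at 0.959, Hpgds to Proca1 at 0.943, Ptgds to Cenpl at 0.922, Ptges to Cd28 at 0.92, Lta4h to Dhrs7 at 0.92 and Ltc4s to B4galnt4 at 0.913. The lowest of these after leaving out the farthest libraries of the member was Ptges with Cd28, at 0.712.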

How the data were processed

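Whole ear skin of 6 Experimental and 4 Littermate mice was compared, 1 library each. Ribosomal RNA was removed, cDNA was primed with random hexamers and each fragment was read once over 50 bases, per the labels' protocols. The tools named in the submitters' processing notes are featureCounts 1.4.5, Subread and STAR 2.0.4b, with build mm10. The annotation release and strand setting are unknown here. The authors deposited whole counts per gene, the only values tested. The deposited CPM equal the count divided by the library total, and the deposited RPKM equal that CPM divided by gene length. Both were checked and not used further. Symbols matched 97.3% of the gene identifiers.

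Normalized CPM are counts over library totals scaled by TMM factors (0.984 to 1.02). Tests used edgeR 4.0.16 (filterByExpr by group, robust quasi-likelihood, two-sided) on all 10 libraries, with Benjamini-Hochberg adjustment over 16830 genes at 0.05, in R 4.3.3. The common biological coefficient of variation was 12.8%. A count of 3 equals 0.0715 to 0.26 CPM by library, which covers counting error only. Ratios used 0.5 added counts and the exact permutation test, and relations 100000 resamples, with ranks from scipy 1.17.1. Beyond the members, the 3 tested genes with the lowest p in each of 7 pathway lists were named. Members and lists were chosen with earlier results of these data known. Alternatives were other size factors, filters, DESeq2 1.42.0, limma 3.58.1 voom, a replicate block, a Y-linked covariate, GC and length offsets and left-out libraries. Leaving out the 2 deepest libraries was chosen after seeing the data. The scripts were tested on simulated data. The control label names littermates, but which mice share a litter or cage is not stated, so p-values measure the spread between these samples. Within each group, every pair of libraries differed by more than counting noise. Motifs were searched in RefSeq start regions (GRCm38.p6).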

Additional observations from a re-analysis of the deposited data

Results flagged for a closer look

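Hdc stood at 222 CPM in Experimental 6, far from the other 5 Experimental libraries at 63.7 to 95.5 CPM, while the Littermates held 99.3 to 161 CPM. The gap to the nearest library was 0.8 of the range of the group, above Dixon's critical value of 0.625 for 6 libraries. It was 1 value of 30 groups checked, and chance sets apart about 1 in 20 groups. The basophil markers were also highest in Experimental 6 among the Experimental libraries and the summed eosinophil markers lowest, the latter through Ear2. The part of these markers in this value was not tested.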

How the results depend on the processing

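Over all genes edgeR called 3. Without a filter on low counts it called 78, DESeq2 called 232, voom with quality weights 57, the fit without both Littermate 2 and Experimental 6 called 563, and leaving out 1 library gave 3 to 343, with 343 without Littermate 2, 28 without Experimental 6 and 8 without Littermate 3. The cause was not tested. The count of members called was 0 under all alternatives but the fit without both Littermate 2 and Experimental 6, where it was 1 (Hdc, -0.88). For Hdc that fit leaves out the lowest Littermate and the highest Experimental library. Replicate numbers are shared by the groups, and correlations of same-numbered deviations lay between -0.0209 and 0.091. These values cannot show whether same-numbered libraries shared a litter or cage. With the replicate numbers as a block, 67 genes and no member were called. The group difference of the log2 ratio of Ptges to Hpgds ran from -0.12 to 0.00 with 1 library left out, reaching 0.00 without Experimental 3. Relations with markers that passed by r numbered 6, but 0 as deviations from the group mean and 0 to 11 with 1 library left out.

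Some single genes changed sign. With the replicate block Hpgds was -0.03, Ltc4s 0.07 and Alox12e 0.04. With the Y-linked covariate Hpgds was -0.13, Ltc4s 0.07, Hpgd -0.18, Alox15 0.00 and Ltb4r2 0.12. With GC and length offsets Hpgds was -0.04, Ltc4s 0.07, Ptges3 -0.02 and Hpgd -0.03. Without the deepest libraries Ptges was 0.02, Hpgds -0.01, Hrh2 0.02 and Hpgd -0.02. With 1 library left out, Ptges ran from -0.07 to 0.00, Hpgds from -0.04 to 0.09, Alox5ap from -0.16 to 0.01, Ltc4s from -0.08 to 0.00, Hrh4 from -0.02 to 0.20, Hpgd from -0.02 to 0.13 and Alox12e from -0.34 to 0.08. Without both Littermate 2 and Experimental 6, Pla2g4d at -0.76, Pla2g4f at 0.34, Pla2g3 at 1.10, Slco2a1 at -0.47 and Cyp4f18 at -0.55 also passed. In that fit 3.34% of all tested genes were called. Depth limits Ptgds, at 19 to 98 counts per Experimental and 27 to 46 per Littermate library, and Ltc4s.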
